A study of Mus musculus with 4 samples.

Results

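The AP-1 and BATF transcription factors were examined across γδ T cells of mouse fat that did or did not express a PLZF reporter. The group holds 10 genes, chosen by name and listed in capitals in the tables: Fos (FOS), Fosb (FOSB), Fosl1 (FOSL1) and Fosl2 (FOSL2) of the Fos family, Jun (JUN), Junb (JUNB) and Jund (JUND) of the Jun family, Atf3 (ATF3), Batf (BATF) and Batf3 (BATF3). All 10 were found among the 46150 genes of the deposited tables, and 7 of them passed the filter of a mean normalized count of at least 10 and were tested. Each of the 7 lay above 10 in every library, so none passed through one subset alone. The cells came from epididymal adipose tissue of male C57Bl/6 mice aged 16 to 22 weeks, fed ad libitum, whose PLZF-GFP reporter marks the zinc-finger factor PLZF, and were sorted into 96-well plates for SMART-seq2. Each subset had 2 libraries, A6 and B6 for PLZF- cells and A7 and B7 for PLZF+ cells, and every library was a pool of 10 untreated mice. These codes are taken from the table columns. What they stand for, and whether the subsets were sorted from the same mice, is not said in the labels, and the gating of the sort is not given in the sources used here.

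AP-1 is a dimer of basic leucine zipper (bZIP) proteins. Fos proteins bind DNA only when paired with a Jun protein, whereas Jun proteins can also pair with each other. Several of the genes, such as Fos, Fosb, Jun and Atf3, are immediate early genes: their transcripts appear soon after receptor signals, stress or tissue handling and decay quickly. BATF and BATF3 are small bZIP proteins that pair with Jun proteins, lack a transactivation domain of their own and cooperate with IRF4 or IRF8. BATF is known for its part in Th17 cells and in regulatory T cells of fat, and BATF3 for its part in cross-presenting dendritic cells.

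The transcripts of 4 of the genes are introduced by the stretch of 250 bases before the start of transcription, because Fos, Jun and Atf3 are immediate early members whose PLZF+ and PLZF- libraries did not overlap and Junb is the abundant member whose libraries did. Fosb also did not overlap, and its stretch was searched but is not printed. The sequences are from RefSeq on GRCm38.p6, 5′ to 3′ in the direction of the gene. Capitals mark TGACG, the half-site of the cyclic AMP response element bound by CREB and ATF proteins, or its reverse complement, and in Jun the site TGACATCA.
Fos, chr12:85473640-85473889, plus strand: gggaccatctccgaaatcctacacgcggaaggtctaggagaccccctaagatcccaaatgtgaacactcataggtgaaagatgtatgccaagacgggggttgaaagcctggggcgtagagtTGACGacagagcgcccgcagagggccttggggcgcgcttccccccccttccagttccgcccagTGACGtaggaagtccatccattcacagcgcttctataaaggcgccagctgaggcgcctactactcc
Jun, chr4:95052223-95052472, minus strand: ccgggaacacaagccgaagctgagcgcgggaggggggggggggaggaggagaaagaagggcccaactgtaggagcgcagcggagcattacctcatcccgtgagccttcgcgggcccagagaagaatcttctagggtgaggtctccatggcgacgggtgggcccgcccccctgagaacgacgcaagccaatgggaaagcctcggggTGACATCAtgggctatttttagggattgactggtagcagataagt
Atf3, chr1:191183334-191183583, minus strand: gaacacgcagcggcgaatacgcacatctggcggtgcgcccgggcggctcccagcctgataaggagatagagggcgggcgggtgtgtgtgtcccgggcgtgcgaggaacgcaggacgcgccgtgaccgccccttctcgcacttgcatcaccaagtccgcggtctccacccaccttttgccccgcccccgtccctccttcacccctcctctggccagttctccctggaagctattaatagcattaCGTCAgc
Junb, chr8:84978749-84978998, minus strand: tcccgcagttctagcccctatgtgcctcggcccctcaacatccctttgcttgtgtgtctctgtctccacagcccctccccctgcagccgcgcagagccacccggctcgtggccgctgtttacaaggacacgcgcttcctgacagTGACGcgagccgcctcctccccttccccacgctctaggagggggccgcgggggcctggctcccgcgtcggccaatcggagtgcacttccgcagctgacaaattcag
Fos held the half-site at 129 to 125 and at 66 to 62 bases before the start, Junb at 106 to 102, and Atf3, on the other strand, at 7 to 3 bases. The last bases of the Atf3 stretch lie in the first exon of a GENCODE M21 transcript, and the stretch lies within a longer Atf3 gene. Both strands of the 9 members with an entry were searched for 4 motifs. The AP-1 site TGANTCA, the full element TGACGTCA and the CArG box of serum response factor had no match in them, and TGACATCA matched in Jun alone, 45 to 38 bases before the start. The share of all 32851 stretches of this length that hold a match was 6.75% for TGANTCA, 1.55% for TGACGTCA, 2.93% for TGACATCA and 1.47% for the CArG box. The half-site, added after the stretches were seen and contained in TGACGTCA, was present in Fos, Fosb, Junb, Atf3 and Batf and in 17.8% of all stretches. A match describes the letters and is not a binding site, and no entry was used for Fosl1. Bases further upstream than these 250 were not searched, so a missing match speaks only for the stretch.

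Estimated depth without the rRNA precursor ranged from 744569 to 981885 reads in PLZF- and from 1837514 to 2035080 in PLZF+ libraries. Zbtb16, the gene of PLZF, ranged from 310.4 to 699 normalized counts in PLZF- and from 2899 to 2921 in PLZF+ libraries, which checks the labels because the cells were sorted on its reporter. Transcripts of the CD3 complex of T cells (Cd3d, Cd3e, Cd3g and Cd247) were present in all 4 libraries, at 133 normalized counts or more. Of 11 listed T cell markers, which include γδ receptor genes, only 6 were matched and tested, the CD3 genes among them. Of these 6, 4 were higher and 1 lower in PLZF+ cells (summed level 2809 to 2932 against 1055 to 1662 normalized counts). Of 11 tested markers of IL-17-producing γδ T cells, which include Zbtb16 itself, 9 were higher and 0 lower (14419 to 16155 against 1473 to 2599). Markers of natural killer and type 1 cells, of group 2 innate lymphoid cells and of dendritic cells moved the other way. Of natural killer and type 1 markers 11 of 11 tested were lower in PLZF+ cells (summed level 93.2 to 118 against 3470 to 3627 normalized counts), of group 2 innate lymphoid markers 7 of 8 (161 to 248 against 3105 to 3479), and of dendritic cell and MHC class II markers 5 of 10 (68.0 to 182 against 901 to 1879). The lists of B cell and αβ T cell markers had 1 tested gene each, called in neither direction. B cell markers summed to 1.69 in A6, 7.32 in B6, 33.4 in A7 and 29.6 in B7. Those of αβ T cells summed to 94.5 in A6, 58.5 in B6, 93.5 in A7 and 89.8 in B7. The 4 tested mast cell markers were called in neither direction, and their list summed to 784 in A6, 309.8 in B6, 316 in A7 and 37.4 in B7, higher in the A library of each subset. Of macrophage, adipocyte and stromal or endothelial markers, 6 of 11, 3 of 6 and 5 of 8 measured were at 0 in every library. Among these were C1qa, Adipoq and Col1a1. Macrophage markers summed to 77.6 in A6, 97.6 in B6, 13.6 in A7 and 32.4 in B7. Adipocyte markers summed to 18.6 in A6, 42.7 in B6, 4.95 in A7 and 2.23 in B7. Stromal or endothelial markers summed to 113 in A6, 117 in B6, 160 in A7 and 153 in B7. The part of these cells in the values that follow was not tested, and in such bulk libraries fewer cells of a type and less RNA per cell cannot be told apart.

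Most AP-1 genes were measured at lower levels in PLZF+ than in PLZF- cells, but only Atf3 passed the test. Across the 9279 tested genes, 4.98% were called lower and 2.47% higher in PLZF+ cells (limma, Benjamini-Hochberg adjusted p under 0.05). Of the 7 tested members, 1 was called lower and 0 higher. Both PLZF+ libraries lay below both PLZF- libraries for 6 of the 7, and for 27.2% of tested genes. The log2 fold change was below 0 for 7 of 7 members and for 51.4% of tested genes, with medians of -0.98 and -0.027. Values in the following paragraphs are normalized counts unless FPKM is named, and fold changes are PLZF+ minus PLZF- on the log2(normalized count + 1) scale.

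**Figure D1:**
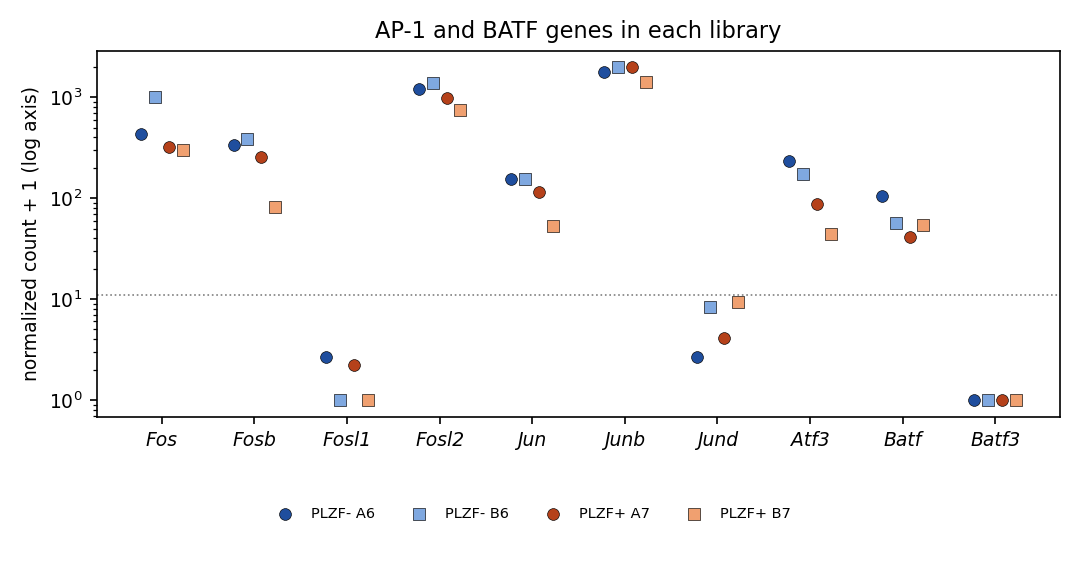
Normalized count plus 1 (log axis) of each of the 10 genes in PLZF- libraries A6 and B6 (blue) and PLZF+ libraries A7 and B7 (orange), circles for A and squares for B; each point is 1 library and the dotted line is the filter at a mean of 10. Junb is at 1429 or more in every library, Fosl1 and Jund lie below the filter, and Batf3 is at 0 throughout.

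Atf3 encodes a bZIP repressor and activator induced by stress signals, which pairs with Jun proteins. Atf3 (ATF3 in the tables) measured 234 in A6, 171 in B6, 86.1 in A7 and 43.0 in B7. The highest PLZF+ library was thus below the lowest PLZF- library, and the means were 203 ± 45.1 and 64.5 ± 30.5 (SD, n = 2 each), a 3.14-fold ratio. The log2 fold change was -1.70 ± 0.40 (SE), with a limma adjusted p of 0.022. The call was lost without A6 (adjusted p = 0.12), without B6 (0.064) and without B7 (0.28), as well as without a filter (0.098) and without trend and robust moderation (0.20). Behind these levels stood 139 estimated reads in A6, 140 in B6, 139 in A7 and 77 in B7, the PLZF+ libraries being the deeper ones.

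Fos (FOS), which gave its family the name, had 435 normalized counts in A6 and 1009.8 in B6. It had 323 in A7 and 296 in B7. The PLZF+ libraries lay close together and the PLZF- libraries did not, B6 being 2.32-fold above A6. The log2 fold change of Fos was -1.10 ± 0.32 (adjusted p = 0.067), which did not pass. It came to -1.70 without A6 (adjusted p = 0.0010) and to -0.49 without B6 (0.22), so its size rests on which PLZF- library is used.

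Fosb (FOSB), a paralog of Fos, had 337 in A6 and 382 in B6, against 253 in A7 and 80.9 in B7. The subsets did not overlap. Here the PLZF+ libraries were the ones that stood apart, A7 being 3.13-fold above B7. The log2 fold change of -1.32 ± 0.43 did not pass (adjusted p = 0.10). It was -2.14 without A7 (adjusted p = 0.0088) and -0.50 without B7 (0.63).

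Fosl2 encodes FRA-2, a Fos protein with no strong transactivation domain. It was listed in 2 rows of the same coordinates, which were summed. The sums for Fosl2 (FOSL2) were 1205 in A6, 1379 in B6, 979.8 in A7 and 739 in B7. The groups did not overlap, and the log2 fold change was -0.60 ± 0.20 (adjusted p = 0.098). The larger row alone had 769 in A6, 1056 in B6, 742 in A7 and 582 in B7 (log2 fold change -0.46, adjusted p = 0.27). The smaller row had 435 in A6, 323 in B6, 238 in A7 and 157 in B7 (log2 fold change -0.95). The tables give no strand, so it is not known which row holds which transcripts. Fosl1, which encodes FRA-1, was barely detected at this depth: it had 1 estimated read in A6, 2 in A7 and 0 in B6 and B7.

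Jun encodes c-Jun, the classical partner of Fos. Jun (JUN) had 154 in A6, 152 in B6, 115 in A7 and 51.9 in B7. Its row spans chr4:95049036-95166048 and so reaches past the start of Jun used above, and reads were not assigned within it. The PLZF- libraries were nearly equal, both above the PLZF+ libraries, and A7 was 2.21-fold above B7. The log2 fold change was -0.98 ± 0.41 (adjusted p = 0.20). It was -1.54 without A7 and -0.41 without B7, and it passed under no alternative tried.

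Junb encodes a Jun protein that is abundant in lymphocytes and partners BATF. It was the most abundant member, with 1778 in A6, 1977 in B6, 1978 in A7 and 1429 in B7 (JUNB). The subsets overlapped, and the log2 fold change was -0.16 ± 0.19 (adjusted p = 0.69). Its direction turned without B7 (log2 fold change 0.077). The row is named for AK006748 as well as Junb, and its reads were not assigned to either. Jund, usually described as a constitutive Jun gene, was close to the floor: it had 1 estimated read in A6, 6 in B6, 5 in A7 and 15 in B7. Its locus is overlapped on the other strand by Gm11175 in GENCODE M21.

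Batf (BATF) had 105 in A6, 56.1 in B6, 40.3 in A7 and 53.0 in B7. The groups did not overlap, but B6 and B7 lay close to each other, and 46 to 95 estimated reads stood behind each value. The log2 fold change was -0.72 ± 0.47 (adjusted p = 0.43). It was -0.27 without A6, and passed under no alternative tried. Batf3 had 0 reads in all 4 libraries. A count of 0 allows up to 3 reads, or 5.06 and 3.66 normalized counts in A6 and B6 and 1.86 and 1.67 in A7 and B7, for counting error only. Clec9a and Xcr1 are genes of the dendritic cells that depend on BATF3. Clec9a, a lectin receptor, had 27.0 in A6, 14.6 in B6, 3.10 in A7 and 0 in B7. Xcr1, a chemokine receptor, had 43.9 in A6, 10.98 in B6, 22.9 in A7 and 19.5 in B7.

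**Figure D2:**
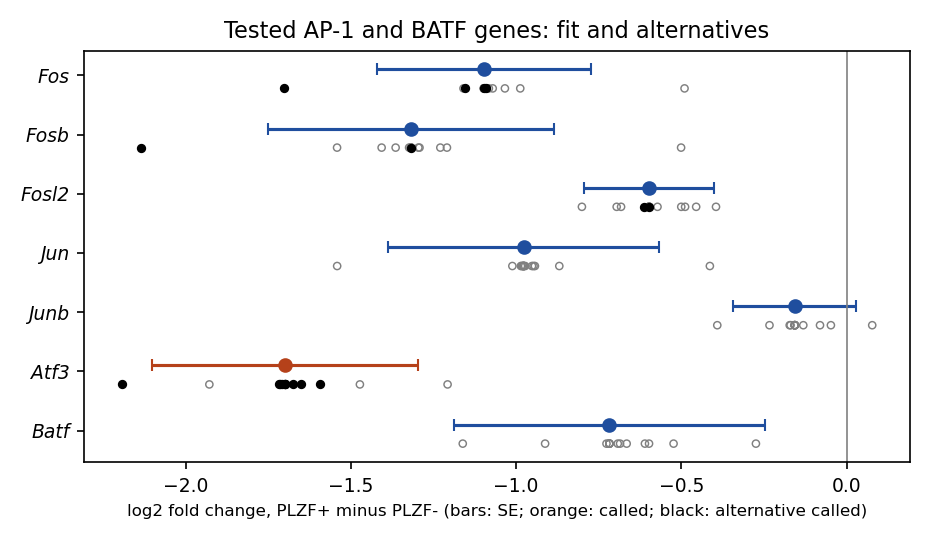
Log2 fold change (PLZF+ minus PLZF-) of the 7 tested genes with its SE (large points with bars, orange where the adjusted p is under 0.05) and, under each, the value in every alternative (small points, black where called). Atf3 lies at -1.70 and is the gene called; the values of Junb alone cross 0.

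In the authors' deposited table, 8 of the 11 rows of these genes were tested and 3 were called: Fos (q = 0.0019), Atf3 (q = 0.0034) and Fosb (q = 0.016), each lower in PLZF+ cells by the means of the deposited FPKM. That table called 5.73% of its 9226 tested loci, and 3.91% as lower. Jun had p = 0.037 and q = 0.27 in the authors' deposited table, and Batf, Junb and both rows of Fosl2 had q from 0.46 to 0.84. Of the 3 genes called there, Fos and Fosb were not called by limma. Both tests thus called Atf3, and neither called Jun, Junb, Fosl2 or Batf.

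Levels were compared between genes by FPKM, which is per length. That of Fosl2 is the sum of both of its rows. The larger Fosl2 row alone had an FPKM of 83.5 in A6, 109 in B6, 76.6 in A7 and 57.6 in B7. This was below Fos in every library, below Fosb in A6 and B6, and above Fosb in A7 and B7. In PLZF- cells the order of mean FPKM was Junb (680.5 ± 53.5), Fos (225 ± 127), Fosl2 (156 ± 5.64), Fosb (110.5 ± 2.66), Atf3 (69.9 ± 15.8), Batf (53.5 ± 9.02) and Jun (29.3 ± 0.0870). Fos and Fosl2 overlapped between libraries in this order, as did Atf3 and Batf, and the other neighbours down to Jun were apart. In PLZF+ cells the order of mean FPKM was Junb (610.3 ± 134), Fosl2 (98.2 ± 22.4), Fos (97.1 ± 2.48), Fosb (41.6 ± 26.4), Batf (35.4 ± 10.2), Atf3 (21.3 ± 9.69) and Jun (15.8 ± 8.37). Fosl2 and Fos overlapped there, as did Fosb and Batf, and Atf3 and Jun. Atf3 had a higher mean FPKM than Batf in PLZF- and a lower one in PLZF+ cells, though in A7 they lay close together (28.2 and 28.3). Jund had a mean FPKM of 0.968 in PLZF- and 1.23 in PLZF+ cells.

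Junb made up 95.6% and 95.9% of the summed Jun-family FPKM in A6 and B6 and 96.9% and 97.8% in A7 and B7. The summed Fos-family FPKM stood to the summed Jun-family FPKM as 0.590 and 0.785 in the PLZF- libraries and as 0.376 and 0.381 in the PLZF+ libraries. The groups did not overlap in this ratio, which carries the level of Fos, Fosb and Fosl2 over that of Junb. The Fosl2 part of it is again the sum of both rows. The ratio of Fosb to Fos FPKM behaved otherwise: it was 0.801 in A6 and 0.610 in A7 but 0.356 in B6 and 0.240 in B7. It was higher in the A library of each subset, whichever the subset.

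Libraries of one subset were also compared with each other for these genes. With 1 library on each side there is no test, and a gene was counted where it was past 2-fold. In PLZF- cells B6 and A6 differed past 2-fold for 1 of 7 members (Fos, log2 difference 1.21), against 27.7% of tested genes. In PLZF+ cells B7 and A7 did so for 2 of 7 (Fosb at -1.63 and Jun at -1.13), against 17.5% of tested genes and 8.63% for those lower in B7, and Atf3 lay just inside the threshold at -0.99. Of the 7 members, 6 were lower in B7 than in A7, against 51.3% of tested genes, and the exception was Batf (0.39). In PLZF- cells 3 of 7 were lower in B6 than in A6, also against 51.3%. The member medians were -0.47 for B7 minus A7 and 0.15 for B6 minus A6, and those of all tested genes were -0.019 and -0.025.

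**Figure D3:**
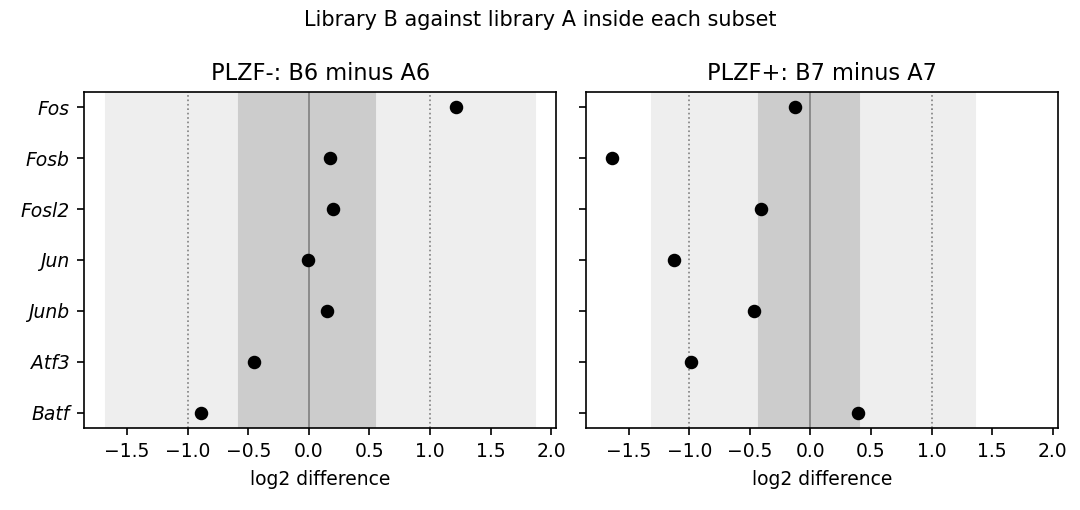
Log2 difference of library B minus library A for the 7 tested genes in PLZF- cells (left) and PLZF+ cells (right); dark and light grey bands hold the middle 50% and 90% of all tested genes, and dotted lines mark 2-fold. Fos lies past 2-fold at 1.21 on the left, inside the light band, and Fosb at -1.63 lies outside the light band on the right.

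Among the immediate early genes outside AP-1, members of the NR4A and IκB families were lower in PLZF+ cells. Of 29 tested, 11 were called lower and 0 higher (limma), which is 37.9% beside 7.45% of tested genes called in either direction, with a median log2 fold change of -0.87. Nr4a1, an orphan nuclear receptor induced by antigen receptor signals, had 1994 in A6, 2145 in B6, 594 in A7 and 310.3 in B7 (log2 fold change -2.27 ± 0.26, adjusted p = 0.00018). Nfkbiz and Nfkbia, which encode IκB proteins of NF-κB signalling, fell by 3.23 ± 0.36 and 1.60 ± 0.25 on the log2 scale, and Nr4a2 by 2.02 ± 0.36. Nfkbiz was at -3.85 without A7 and at -2.60 without B7. The calls of Nfkbia and Nr4a2 were lost without B7. Without trend and robust moderation Nr4a1, Nfkbiz, Nfkbia and Nr4a2 all lost their calls (limma adjusted p = 0.11, 0.070, 0.18 and 0.17). Nr4a2 also lost its call without a filter (limma adjusted p = 0.051). The list was also lower in B7 than in A7 for 23 of 29 genes, with a median log2 difference of -0.31.

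Heat shock genes, which encode chaperones induced by cell stress, were lower in the B library of each subset. All 11 tested were lower in B7 than in A7 and 10 of 11 lower in B6 than in A6, with median log2 differences of -1.03 and -1.32. Between subsets the median log2 fold change was -0.89 and 1 of 11 was called (9.09% beside 7.45% of tested genes): Dnaja1, a co-chaperone (log2 fold change -1.42 ± 0.29, adjusted p = 0.010, and 0.24 without B7). Hspa8, the constitutive HSP70 chaperone (-0.87, adjusted p = 0.095), and Hspd1, the mitochondrial chaperonin (-0.65, adjusted p = 0.30), did not pass. Of the 7 tested AP-1 and BATF genes, 6 were lower in B7 than in A7 and 3 were lower in B6 than in A6, as given above. The part of the heat shock difference in the AP-1 values was not tested.

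Of 22 other bZIP factors tested, 2 were called higher and 1 lower, which is 13.6% beside 7.45% of tested genes, and their median log2 fold change was 0.057. Bach2, a repressor that competes with AP-1 at its sites, fell by 2.76 ± 0.38 (269 in A6, 224 in B6, 42.5 in A7 and 29.6 in B7, adjusted p = 0.00066), at a locus that also carries D130062J21RIK and GM11932. It was called under all 15 alternatives. Maf, a large Maf factor of IL-17-producing γδ T cells, rose by 1.09 ± 0.22 (adjusted p = 0.010), and Atf6, a sensor of endoplasmic reticulum stress, by 1.33 ± 0.28 (adjusted p = 0.012). Both were lost without A7 (adjusted p = 0.26 and 0.20) and without B7 (0.099 and 0.15), and Atf6 also without B6 (0.053).

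Genes of the MAP kinase pathways that induce and phosphorylate AP-1 were called in 3 of 34 cases, 1 higher and 2 lower, which is 8.82% beside 7.45% of tested genes, with a median log2 fold change of -0.11. Prkcq, which encodes the protein kinase C that links the T cell receptor to AP-1, had 396 in A6, 307 in B6, 99.7 in A7 and 118 in B7 (log2 fold change -1.68 ± 0.28, adjusted p = 0.0030). Map3k1, a kinase above JNK, fell by 0.997 ± 0.21, while Rasgrp1, a Ras activator of lymphocytes, rose by 1.25 ± 0.27. Without trend and robust moderation Prkcq, Map3k1 and Rasgrp1 all lost their calls (limma adjusted p = 0.13, 0.27 and 0.24). By FPKM, Map3k1 and Rasgrp1 lost theirs (0.098 and 0.076), as did Rasgrp1 without a filter (0.069). Without A7 and without B7 the log2 fold change was -1.55 and -1.80 for Prkcq. It was -1.09 and -0.90 for Map3k1, and 1.24 and 1.27 for Rasgrp1. These are sizes only: the calls of Map3k1 and Rasgrp1 were lost in both fits, and that of Prkcq without A7.

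Of 11 factors known to cooperate with BATF or AP-1, 1 rose and 1 fell, which is 18.2% beside 7.45% of tested genes, with a median log2 fold change of 0.019. Irf8 had 241 in A6, 159 in B6, 4.95 in A7 and 16.2 in B7 (log2 fold change -4.28 ± 0.59, adjusted p = 0.00070), and its log2 fold change was -3.52 without A7 and -5.04 without B7. It is also a dendritic cell marker, and those markers were lower in PLZF+ cells. Ikzf3, an Ikaros factor, rose by 0.68 ± 0.15 (adjusted p = 0.016, but 0.29 without A7 and 0.30 without B7). Irf4, the other IRF partner of BATF and named after its values were seen, had 8.44 in A6, 6.10 in B6, 88.6 in A7 and 13.95 in B7, a log2 fold change of 2.16 ± 0.91 that did not pass (adjusted p = 0.20).

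**Figure D4:**
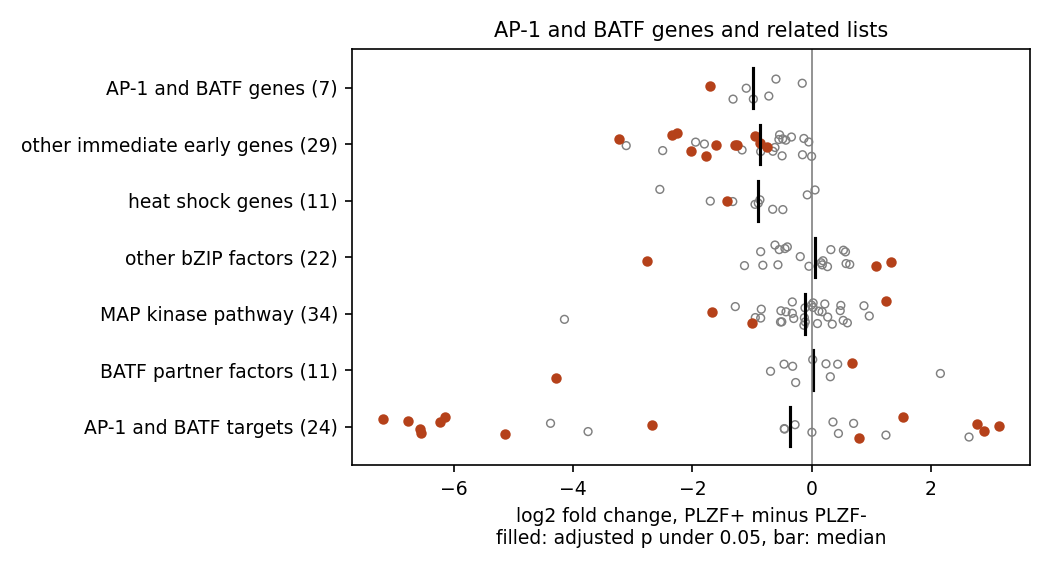
Log2 fold change (PLZF+ minus PLZF-) of the tested genes of each list, with the number tested in brackets; each point is 1 gene, filled where the adjusted p is under 0.05, and the vertical bar is the list's median. The AP-1 and BATF genes (median -0.98), the other immediate early genes (-0.87) and the heat shock genes (-0.89) lie to the left of 0, while the medians of the other bZIP factors and BATF partners lie at 0.057 and 0.019.

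Genes described as targets of AP-1 or BATF in lymphocytes were called in both directions: of 24 tested, 5 were higher and 8 lower in PLZF+ cells, which is 54.2% beside 7.45% of tested genes (median log2 fold change -0.37). Il23r, a receptor chain of IL-23 signalling, rose by 2.89 ± 0.22 (adjusted p = 1.4e-05). Csf2 and Il5, cytokine genes, fell (log2 fold changes -6.57 ± 0.65 and -6.15 ± 0.62), as did Ccl5, a chemokine gene (-6.56 ± 0.68). In PLZF+ cells 2 to 28 estimated reads stood behind each of these 3, and without A7 and without B7 the log2 fold change was -7.62 and -5.53 for Csf2, -7.29 and -5.01 for Il5, and -7.74 and -5.38 for Ccl5. Some genes of this list, such as Il23r and Il17a, are also on the marker list of IL-17-producing cells, and others, such as Il5, Il1rl1, Klrg1 and Gzmb, on those of other lymphocytes, so the list is not separate from the subsets' own markers. All 4 genes named first were called under each of the 15 alternatives.

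The genes whose pattern over the 4 libraries was most like that of Fos were Zbtb4, Armc7 and Kdm1b, at distances of 0.11, 0.20 and 0.22 between log2 values centred on each gene's mean. Only 13 of 3908 candidate genes lay within 0.5 of Fos. For Batf the nearest were Gpd2, Nck1 and Atg16l1 (0.035, 0.058 and 0.13), with 206 within 0.5, and for Junb they were Erap1, Bod1l and Kansl3 (0.053, 0.070 and 0.084), with 678. With 4 libraries such likeness is a description.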

How the data were processed

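Libraries were SMART-seq2 of sorted cells. Per the submitters' processing notes, the build was mm10 and the tools were Cuffdiff, Cufflinks 1.2, SAMtools 1.2 and HISAT 0.1.6. Which gene annotation was used is not given in the sources used here, nor is strand handling. The authors deposited normalized counts from Cuffnorm (a signal: estimated counts over a library factor, not raw counts), FPKM from Cuffnorm, and Cuffdiff p-values and q-values. Columns show the subset but no replicate number. Low values were multiples of the value of 1 read, with 92.4% to 94.3% of values within 0.05 of a whole number, too few for a count test. Rows of one symbol with overlapping loci were summed (46799 rows, 46150 genes) and named through GENCODE M21 and RefSeq. The rRNA precursor Rn45s, listed at 0 in B7, was left out.

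Tests used limma 3.58.1 (R 4.3.3) on genes whose mean normalized count reached 10 (log2(normalized count + 1), trend, robust, two-sided, Benjamini-Hochberg over 9279 genes, threshold 0.05). Tested on data simulated for PLZF+ against PLZF- cells over 9279 genes, it called 48% of 2-fold, 96% of 4-fold and 100% of 8-fold changes, and 11 of 9079 unchanged genes. All genes were simulated at the same spread between libraries (dispersion 0.033), taken from the more abundant genes. The shares called therefore do not describe genes that vary more between libraries. Replicates are pools, so p-values rest on the spread between pools and not between mice. With 2 libraries in each subset, limma took that spread in part from other tested genes. Other software was Python 3.11.15, pandas 2.3.3, numpy 2.4.6 and matplotlib 3.10.9.

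The members and lists were chosen with earlier results of these data known. All 10 members are named. From each other list, the called genes with the smallest p (up to 4) are named, with up to 2 more where fewer than 2 passed. Genes of like pattern had a mean of at least 50. Alternatives were the FPKM table, leaving out each library, no filter, a minimum mean of 50, pseudocounts of 0.25 and 4, scaling by median ratio or by equal totals, no trend or robust moderation, the library letter as a term, voom on estimated reads, and rows not summed.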

Additional observations from a re-analysis of the deposited data

How the results depend on the processing

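No paired analysis was possible because the table columns carry no replicate number. The fit with the library letter (A or B) as a term stands in its place here, though no label says that a letter pairs libraries. The number of members called lower was 1, and came to 0 to 2 when 1 library was left out (0 without B6 or B7, 2 without A7). It was 2 with a pseudocount of 4, 0 without a filter, 0 without trend and robust moderation, 4 with the library letter as a term and 3 by voom. The fit with the letter leaves 1 residual degree of freedom per gene. No member was called higher under any alternative (limma, and 0 by voom). Fos was called with a pseudocount of 4 (adjusted p = 0.043), with the letter (3.0e-05) and by voom (0.011), and Fosl2 with the letter (0.010) and by voom (0.030). Fosb was called with the letter (9.3e-05). The direction was kept for Fos, Fosb, Fosl2, Jun, Atf3 and Batf under all 15 alternatives, and that of Junb ranged from -0.39 (without A7) to 0.077 (without B7, reversed, adjusted p = 0.95) when 1 library was left out.

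Over all tested genes, 229 were called higher and 462 lower. Leaving out 1 library gave 34 to 316 higher and 231 to 298 lower. Without a filter the counts were 109 and 272, without trend and robust moderation 28 and 184, and 426 were higher with the letter. The causes were not tested. Counts past 2-fold between libraries of one subset were the same by FPKM, median-ratio scaling and both pseudocounts. Fosl1, Jund and Batf3 fell below the filter, and the part of depth in this was not tested. A single read stands for 1.69 normalized counts in A6 and 1.22 in B6.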
